A study of Mus musculus with 8 samples.

Results

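The 10 genes described here encode costimulatory and checkpoint ligands, the surface and secreted molecules through which myeloid cells raise or restrain T cell responses. They were chosen by gene name (Cd80, Cd86, Cd40, Icosl, Cd274, Pdcd1lg2, Tnfsf9, Cd48, Vsir and Lgals9), and all 10 were found among the 23084 genes of the authors' table. RNA was sequenced from CD11b+Ly6C+ (monocytic) and CD11b+Ly6G+ (granulocytic) cells sorted from the spleens of WT and Lmna KO mice to ask how deleting lamin A/C bears on myeloid differentiation. The mice were of the C57BL/6 strain and aged 6 to 8 weeks. The 8 samples form 4 groups of 2: WT CD11b+Ly6C+, WT CD11b+Ly6G+, KO CD11b+Ly6C+ and KO CD11b+Ly6G+. In the KO mice, LysM-Cre deletes the floxed Lmna gene and acts only in cells that have expressed lysozyme 2. Titles assigned the samples to a subset, because the cell-marker label reads CD11b+Ly6C+ in all 8.

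T cells need a second signal beside antigen. CD80 and CD86 bind CD28 to give it and CTLA-4 to restrain it, ICOS ligand binds ICOS, 4-1BB ligand (Tnfsf9) binds 4-1BB, and CD40 on the presenting cell receives CD40 ligand from the T cell. PD-L1 (Cd274) and PD-L2 (Pdcd1lg2) bind PD-1 and inhibit the T cell, and VISTA (Vsir) and galectin-9 (Lgals9) are further inhibitory molecules of myeloid cells.

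The values used were the authors' mean signal per gene, an average of counts divided by size factors, with no value per sample. The level of a gene is its mean signal divided by the kilobases of its merged exons, given in parts per 1000000 (ppm) of that quantity summed over all genes with a length. Levels are set against the median gene, which stood at 3.58 ppm among the 19603 genes with a mean signal of at least 1 and a length. The low mean signals could be resolved into whole reads. All 2167 mean signals of up to 0.6 matched exactly 1 combination of whole reads from 8 libraries, within a tolerance of 2e-08. The mean therefore runs over 8 libraries, as many as there are samples in both subsets and both genotypes, and was taken to cover those samples. Their size factors, by which counts were divided, ran from 0.796 to 1.91 with a median of 0.976, and the second highest was 1.05. The libraries carry no label here, so the one with the highest size factor was not tied to a sample. Each value below is then an average over monocytic and granulocytic cells and over WT and KO mice, and the shares of each cannot be told apart. The spread between samples is unknown, and the errors and 95% intervals given cover counting error only, at its upper bound.

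The sorted populations were checked against markers. Of the ranked protein-coding genes, 61.9% lay above the median gene. Marker counts near or below that share do not set a list apart. All 11 neutrophil markers lay above the median gene, with a summed level of 249051 ppm led by S100a9 at 133153, and Ly6g stood at 799. All 10 monocyte markers did too. Itgam, which encodes CD11b and so marks both sorted subsets, had 1031 of their summed 2838 ppm, and the other 9 summed to 1808 ppm, with Ly6c2 at 504 and Csf1r at 368. Genes of other cells were also detected. All 10 B cell markers lay above the median gene, with a summed level of 1198 ppm led by Cd79a at 389, and so did all 10 macrophage markers, with 4868 ppm led by Hmox1 at 1167. Of the T and NK cell markers, 7 of 9 did, with 181 ppm led by Nkg7 at 49.7. Of the erythroid and platelet markers, 5 of 6 did, with 1642 ppm led by Hbb-bs at 1070, and of the eosinophil, basophil and mast cell markers, 5 of 6, with 95.8 ppm led by Prg2 at 50.2. Of the conventional dendritic cell markers, 4 of 8 did, with a summed 107 ppm and Itgax at 51.9, while Xcr1 stood at 0.361 and Zbtb46 at 0.529. Of the plasmacytoid dendritic cell markers 1 of 4 did, Bst2 at 86.6, out of a summed 93.9 ppm, while Siglech stood at 3.28. B cells, macrophages and dendritic cells also express several of the ligands, and their part in the levels below was not tested. In sorted bulk samples, more cells of a type and more RNA per cell cannot be told apart. The targeted gene, Lmna, had a level of 1.3 ppm over WT and KO libraries together, at the 37.4th percentile, which does not check the genotype labels. Lmnb1, which encodes lamin B1, had 152 ppm, and Lyz2, whose promoter drives the Cre, had 7580.

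The ligand genes spanned a 209-fold range of levels, from Vsir at 501 ppm to Tnfsf9 at 2.40, and an 811-fold range on coding length. In 9 of the 10 the level was above the median gene, and Pdcd1lg2, at 3.60 ppm, was above it by less than its counting error of at most 4.62%. The count was 8 with the longest transcript or coding length, and 7 among protein-coding genes alone. It was 10 with no filter on low signal, and 6 among genes with a mean signal of at least 10. In that last ranking Cd40 (48.6th percentile), Cd80 (41.5th) and Pdcd1lg2 (31.5th) also lay below the median gene. The median of the 10 levels was 46.2 ppm. By definition 50.0% of all ranked genes lie above the median gene, and 61.9% of the 14479 protein-coding genes among them did, with a median of 7.34 ppm. From high to low the order was Vsir, Lgals9, Cd48, Icosl, Cd86, Cd274, Cd40, Cd80, Pdcd1lg2 and Tnfsf9. Every neighbouring pair in this order differed by more than its counting error on merged exons, the closest being Icosl and Cd86, with a ratio of levels of 1.03 (interval 1.01 to 1.06). Whether neighbours differ beyond the spread between samples could not be assessed.

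**Figure D1:**
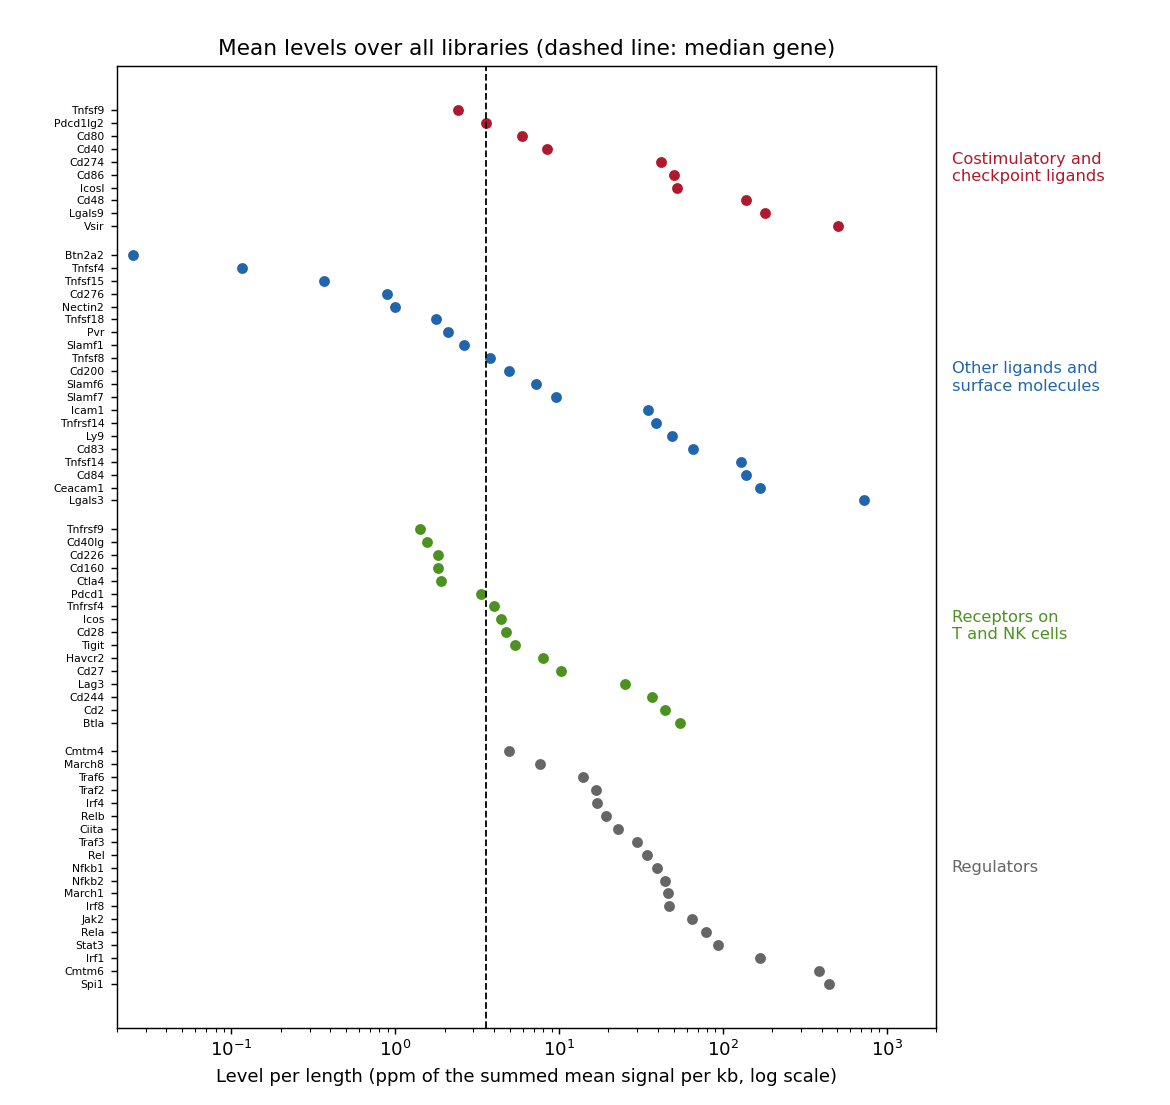
Mean level per length of the 10 costimulatory and checkpoint ligand genes, 20 other ligands and surface molecules, 16 receptors of T and NK cells and 19 regulators, in ppm on a log scale. Each point is a gene's authors' mean over 8 libraries with no error bar, and the dashed line is the median gene at 3.58 ppm. The ligand genes run from 2.40 to 501 ppm.

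The 4 inhibitory genes held 73.8% of the summed level of the 10, which was 985 ppm. That share was 71.9% with the longest transcript and 81.8% on coding length. Vsir alone held 50.9% of the summed level on merged exons (interval 50.6 to 51.1), and its level lay at the 99.0th percentile. With Vsir left out of the sum, the other 3 inhibitory genes held 46.7% of the rest. Vsir encodes VISTA, a B7 family molecule of myeloid cells that restrains T cell activation. The gene lies on chromosome 10 of mm10 (60346851 to 60372684, plus strand), inside Cdh23 on the opposite strand, with which it shares 0 exon bases. Its mean signal of 26242 corresponds to at least 167168 reads and at most 401662 over the 8 libraries. Lgals9, which encodes the secreted galectin-9, a ligand of TIM-3, had 181 ppm, at the 97.0th percentile. Its gene lies on chromosome 11 (78962974 to 78984946, minus strand). The level of Vsir was 2.77 times that of Lgals9 (interval 2.74 to 2.81), and 2.13 times with the longest transcript as length. On coding length it was 7.44 times, since 927 of the 5014 exon bases of Vsir are coding.

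Of the pair of PD-1 ligands, Cd274 (PD-L1) had 41.8 ppm, at the 87.1st percentile, and Pdcd1lg2 (PD-L2) had 3.60, at the 50.1st. The level of Cd274 was 11.6 times that of Pdcd1lg2 (interval 10.6 to 12.8), 10.2 times with the longest transcript and 18.3 times on coding length. The genes are neighbours on the plus strand of chromosome 19, Cd274 from 29367455 to 29388095 and Pdcd1lg2 from 29410919 to 29471161, with 22823 bases between them. Jak2, a kinase of interferon and cytokine receptor signalling that lies 54374 bases before Cd274, had 64.5 ppm on merged exons and 37.4 ppm on coding length, above Cd274 on the former and below its 68.2 ppm on the latter. Plgrkt, the gene next to Cd274 on the opposite strand, had 17.7 ppm on merged exons and 59.8 ppm on coding length, below Cd274 on both, and 54.2 ppm with the longest transcript, above the 34.4 ppm of Cd274. The other 6 protein-coding genes listed within 250 kb had, on merged exons and in order of position, 9.64 ppm (Rcl1), 3.20 (Insl6), 9.25 (Ric1), 21.8 (Ermp1), 0.0607 (Mlana, a melanocyte gene) and 16.6 (9930021J03Rik). Of the exon bases of Cd274, 511 (14.1%) also lie in exons of an antisense gene, which has no mean signal among the authors' genes. Whether the authors' counting used strand is not given in the sources used here, so reads of overlapping genes on opposite strands cannot be told apart.

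**Figure D2:**
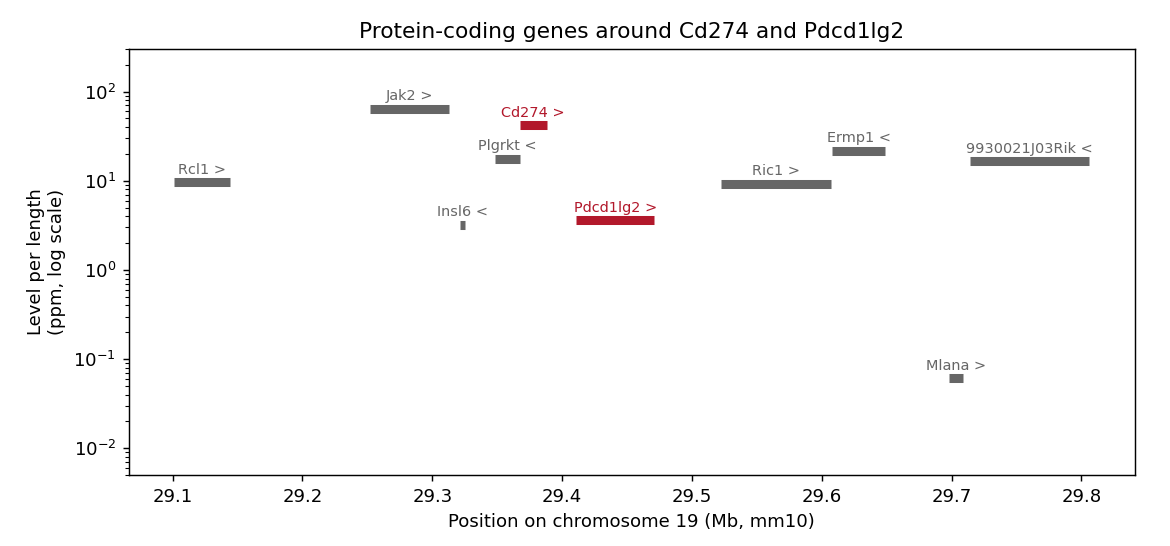
Protein-coding genes around Cd274 and Pdcd1lg2 on chromosome 19 of mm10, with position in Mb on the horizontal axis and mean level per length, in ppm on a log scale, on the vertical axis. Each bar spans a gene, the sign after its name gives the strand, and no error is drawn. Cd274 stands at 41.8 ppm and its neighbour Pdcd1lg2 at 3.60.

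The 3 costimulatory B7 genes held 11.0% of the summed level. Icosl, which encodes ICOS ligand, had 52.3 ppm, at the 89.5th percentile, and lies on chromosome 10 (78069302 to 78083913, plus strand). Cd86 had 50.6 ppm, at the 89.2nd percentile, and Cd80, which binds the same receptors, had 5.97, at the 57.4th. The level of Cd86 was 8.47 times that of Cd80 (interval 8.02 to 8.94), 10.5 times with the longest transcript and 8.29 times on coding length. Both genes lie on chromosome 16, Cd86 on the minus strand from 36603869 to 36666081 and Cd80 on the plus strand from 38455561 to 38496335. The level of Icosl was 8.76 times that of Cd80 (interval 8.30 to 9.24).

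The 2 genes of the TNF and TNF receptor families held 1.09% of the summed level. Cd40, the receptor through which T cells license presenting cells, had 8.38 ppm, at the 62.5th percentile, and lies on chromosome 2 (165055627 to 165072948, plus strand). Tnfsf9, which encodes 4-1BB ligand, had 2.40 ppm, at the 44.8th percentile, below the median gene, and between the 24.4th and the 52.9th in the alternatives tried. Its mean signal of 32.4 corresponds to between 206 and 496 reads over the 8 libraries, with a counting error of at most 6.96%. Tnfsf9 lies on chromosome 17 (57105325 to 57107757, plus strand), and 192 (14.9%) of its exon bases lie in exons of Gm11110 on the opposite strand, whose mean signal was 13.4. The level of Cd40 was 3.49 times that of Tnfsf9 (interval 3.02 to 4.02), and 9.84 times on coding length.

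Cd48, which encodes a SLAM family ligand of CD2 and CD244 carried by most blood cells, had 138 ppm, at the 96.0th percentile. Its gene lies on chromosome 1 (171682009 to 171705258, plus strand), in a cluster of 7 SLAM family genes that spans 394 kb. Within that cluster Cd84, a receptor that binds itself, stood at 138 ppm, Ly9 at 48.7, Cd244 at 36.7, Slamf7 at 9.62, Slamf6 at 7.20 and Slamf1 at 2.64. On coding length Cd84 had 343 ppm and Cd48 89.6. Cd48 has the shortest merged exons of the 10 (1189 bases), and on coding length its level fell below that of Icosl, with a ratio of 0.974 in place of 2.65.

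Of 23 other ligands and surface molecules of T cell costimulation or inhibition, 20 were analysed. Of these, 12 (60%) lay above the median gene, near the 61.9% of ranked protein-coding genes. Their median was 6.06 ppm, beside 7.34 ppm for those genes. Lgals3, which encodes galectin-3, was the highest at 723 ppm, and Ceacam1, an adhesion molecule, had 168. Tnfsf14, which encodes LIGHT, had 129, and Cd83, a marker of activated presenting cells, had 66.0. Among the lowest were Tnfsf4, which encodes OX40 ligand, at 0.115 (counting error at most 26.6%) and Btn2a2 at 0.0251 (at most 50.3%). Ranked among protein-coding genes alone, 9 of the 20 lay above the median gene, beside 7 of the 10 ligand genes.

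Of the 16 receptors, 10 lay above the median gene (62.5%), near the 61.9% of ranked protein-coding genes. Their median was 4.58 ppm, beside 7.34 ppm for those genes. The count was 7 on coding length, 6 among protein-coding genes alone, 5 among genes with a mean signal of at least 10 and 14 with no filter on low signal. Btla, an inhibitory receptor of lymphocytes, had 55.0 ppm, Cd2 had 44.1 and Cd244 had 36.7, the last 2 being the receptors of CD48. Of the receptors of the B7 ligands, Cd28 at 4.74 and Icos at 4.42 lay above the median gene. Pdcd1 (PD-1) at 3.35 and Ctla4 at 1.89 lay below it. Havcr2, which encodes TIM-3, had 7.93, Cd40lg 1.57 and Tnfrsf9, which encodes 4-1BB, 1.41 ppm.

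All 19 regulators analysed lay above the median gene, beside 61.9% of ranked protein-coding genes, with a median of 39.7 ppm. Spi1, the PU.1 factor of myeloid cells, had 443. Cmtm6, which protects PD-L1 from degradation, had 387, and its relative Cmtm4 had 4.93. Irf1, which acts in the interferon response that raises Cd274, had 169. March1, a ubiquitin ligase that removes CD86 from the surface, had 46.5, and Ciita, the activator of MHC class II genes, had 22.8.

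RefSeq promoter entries (GRCm38.p6) matched 7 of the 10 genes, and Cd86, Cd40 and Tnfsf9 were not matched. In the 250 bases before the start, Icosl held 23 CpG dinucleotides, Cd274 11 and Vsir 9, above the median of 6 over 32851 promoters. Cd48 held 4, and Cd80, Lgals9 and Pdcd1lg2 held 3 each.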

How the data were processed

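RNA-seq libraries were made from 8 samples of sorted splenic myeloid cells. According to the submitters' processing notes and the methods, the authors used cutadapt 1.14 for trimming, STAR 2.5.2b for alignment to mm10, RSEM 1.3.0 with GENCODE M12 for gene expression and DESeq2 1.20.0 for normalization and testing. The mean signal per gene is the authors' average of counts divided by size factors. The other 6 columns hold the authors' comparison (log2 fold change, its standard error, test statistic, p-value, adjusted p-value and fold change) and were not used here, so no groups were compared and no test was run. Exon lengths came from GENCODE M21, matched by Ensembl identifier for 23004 of 23084 genes. Where a symbol occurred again (28 rows), its highest mean signal was kept, and March1 and March8 were matched by identifier. The steps of the low mean signals were found by a search tested on simulated tables, and accepted only where nearly all low signals had a single solution, a rule added after wrong steps were found in a simulated table of fewer libraries. Named genes are the 10 ligand genes, Lmna, Lmnb1, Lyz2 and the genes of the lists and markers; the neighbours of Cd274 and Pdcd1lg2, Gm11110 and Cdh23 were named for their position after their values were seen. The ligand genes and lists were chosen with earlier results of these data known. Vtcn1, Cd70 and Btn1a1 were not analysed here, and 1 regulator of the list is not reported here. Python 3.11.15, pandas and numpy were used.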

Additional observations from a re-analysis of the deposited data

How the results depend on the processing

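Levels and percentiles were recomputed with other lengths, other genes in the sum and other genes ranked. Chosen after seeing the data were the coding length from the annotation, the longest transcript for percentiles and for the share of Vsir, and the protein-coding ranking of the counts above the median gene. Among the 10 ligand genes the counting error of a level was at most 6.96%, that of Tnfsf9, and it was larger for lower genes of the lists. Summing protein-coding genes alone, or leaving out the mitochondrial chromosome, multiplied every level by the same factor, 1.10 and 1.11. With other lengths, the levels of the 10 ranged from 0.546 times the reported value for Tnfsf9 to 2.12 times for Vsir, both on coding length. The order of the 10 genes was the same with the longest transcript, and on coding length Icosl passed Cd48. The lower genes moved most in percentile over the lengths and rankings tried: Tnfsf9 from 24.4 to 52.9, Pdcd1lg2 from 31.5 to 57.5, Cd80 from 41.5 to 63.7 and Cd40 from 48.6 to 68.1, each range including the median gene.

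Vsir held 46.1% of the summed level with the longest transcript and 68.1% on coding length. The ligand genes above the median gene numbered between 6, among genes with a mean signal of at least 10, and 10 with no filter on low signal. The receptors above it numbered 5 and 14 under the same settings and 6 among protein-coding genes, in place of 10. The other ligands numbered between 9 and 14, in place of 12, and the regulators between 17 and 19, in place of 19. The 2167 low signals were resolved at tolerances 10 times wider and narrower too. No paired analysis was possible because the authors' mean carries no values per sample.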

Other observations

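Each of the 2167 genes whose mean signal was resolved into whole reads had at least 2 reads in total, in at least 2 libraries, and genes with a mean signal above 0.6 were not resolved. S100a8 and S100a9 together held 19.0% of the summed level per length, and genes of the mitochondrial chromosome held 9.61%, which lowers the share of every other gene.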
